A study of Homo sapiens with 4 samples.

Results

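The coagulation and fibrinolysis genes described here are 9 genes that decide whether monocytes favour or resist clotting: F3, THBD, TFPI, F13A1, PLAU, PLAUR, SERPINE2, SERPINB2 and THBS1. They were chosen by name, with earlier results of these data known, and every probe set annotated to one of them alone was taken. A probe set is a group of short probes that together read part of 1 transcript. This gave 24 of the 54675 probe sets on the array and 8 of the 9 genes. SERPINB2, the plasminogen activator inhibitor of monocytes, had no probe set under its name in the annotation used and is not analysed here. RNA was measured on 4 arrays, 1 per condition and without replicates, in THP-1 cells, an established line from a human acute monocytic leukaemia. One array held cells co-cultured for 24 h with platelet-like particles and another held cells after 12 h of the same co-culture. These times are those of the source labels and descriptions, while the titles of these arrays end in 25 and 13. Per the series design, the cells of both had also received Pam3CSK4, a synthetic lipopeptide that activates the receptors TLR1 and TLR2. The other arrays held cells given Pam3CSK4 without particles, for a time not given in the sources used here, and resting cells that received neither.

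Blood clotting in and around tissue starts when tissue factor, the product of F3, meets factor VII on a cell surface, which leads to thrombin and then to fibrin. Thrombomodulin (THBD) and tissue factor pathway inhibitor (TFPI) restrain that process, factor XIII (F13A1) cross-links the fibrin, and urokinase (PLAU) bound to its receptor (PLAUR) makes plasmin, which dissolves it. Serpins such as protease nexin 1 (SERPINE2) inhibit thrombin and the plasminogen activators, and thrombospondin 1 (THBS1) is a matrix glycoprotein that platelets store and monocytes secrete. Monocytes are the main blood cells that can be induced to make tissue factor.

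Values are log2 expression, so that a difference of 1 is 2-fold. A gene counted as measured where, on 1 array or more, its probe set of highest mean was at or above 6.19, the middle of the whole table, here called the filter level. Differences were counted from 2-fold on. Of the 8 genes 7 were measured, and TFPI was under that level throughout. With 1 array per condition there is no spread between cultures and no test, and precision is limited by the number of arrays. As a scale, the central 95% of all 13410 measured genes lay between -0.855 and 1.502 for Pam3CSK4 minus resting, between -0.62 and 0.52 for 12 h minus Pam3CSK4, and between -0.25 and 0.30 for 24 h minus Pam3CSK4. Of 8 listed monocytic markers with a probe set, 7 were at or above the filter level on each array, and FCGR1A was under it on all. Of 14 listed megakaryocyte and platelet markers with a probe set, 8 reached it on an array or more, with GNG11 the highest at up to 7.94 log2. The other 6, PF4, PPBP, GP5, GP6, TUBB1 and CLEC1B, were under it on all. In bulk RNA, fewer cells of a type and less RNA per cell cannot be told apart.

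With Pam3CSK4 alone, urokinase and its receptor, thrombomodulin, SERPINE2 and THBS1 stood above their resting level and the A subunit of factor XIII below it. Of the 7 measured members 5 were at least 2-fold higher, namely THBS1, PLAUR, THBD, PLAU and SERPINE2, set beside 4.14% of all genes. One, F13A1, was at least 2-fold lower, set beside 1.71% of all genes, and F3 differed by less than 2-fold. The median over the 7 was 1.48 log2, against -0.05 over all measured genes. F13A1 passed the filter only through the resting array and THBS1 only through the other arrays, so these had to differ and the counts describe the 7 without supporting more. GAPDH control probes at the 3' end read 0.59 log2 above those at the 5' end with Pam3CSK4 and 2.16 log2 above them at rest. The same gap for ACTB was 2.91 log2 with Pam3CSK4 and 3.41 log2 at rest. These gaps are commonly used to check RNA and labelling, and their part in the differences was not tested. Monocytic markers differed as well: 2 of the 7 measured were at least 2-fold higher with Pam3CSK4, CD14 by 2.40 and ITGAM by 2.20. The second ITGAM probe set gave -0.19, so that call depends on the probe set. The median over the 7 was 0.63. The summed monocytic level was 14.16 log2 with Pam3CSK4 and 13.51 log2 at rest, and its part in the differences was not tested either.

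F3, the gene of tissue factor and the starter of coagulation, was lower in every activated culture than at rest. Its single probe set read 7.73 log2 after 24 h with particles, 7.27 after 12 h with particles, 7.79 with Pam3CSK4 alone and 8.44 at rest. The resting array was thus the highest and the 12 h array the lowest, with the 24 h and Pam3CSK4 arrays close together. Against rest, the Pam3CSK4 difference was -0.65, or 1.57-fold lower, and 12 h minus Pam3CSK4 was -0.52, or 1.44-fold lower. Neither reached 2-fold, and both lay inside the central 95% of genes. The 12 h value was 1.17 log2 under the resting one (12 h minus resting -1.17), past 2-fold in a direction that 4.21% of all genes shared in that comparison. At 24 h the difference from Pam3CSK4 was -0.06.

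The 250 bases before the annotated F3 start are shown because F3 is known as a target of AP-1, NF-kB-like and EGR1 and SP1 sites in monocytes. They lie at chr1:94541760-94542009 on the minus strand of GRCh38.p14, as given by RefSeq, and capitals mark motif matches on either strand.
F3: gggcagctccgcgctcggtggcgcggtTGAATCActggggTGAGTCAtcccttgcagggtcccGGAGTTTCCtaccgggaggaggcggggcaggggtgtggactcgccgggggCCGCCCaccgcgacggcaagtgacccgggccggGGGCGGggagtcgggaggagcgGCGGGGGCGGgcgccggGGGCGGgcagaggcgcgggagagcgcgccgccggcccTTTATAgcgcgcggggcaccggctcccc
The motifs searched were AP-1 (TGANTCA), the NF-kB consensus, a shorter kB-like form (GGANTTTCC), SP1 (GGGCGG), EGR1 (GCGNGGGCG), CCAAT, the E-box CACGTG and TATAAA. Among 35116 RefSeq windows of that length these were held by 6.57%, 9.96%, 1.45%, 42.6%, 8.41%, 32%, 6.34% and 10.7%. The F3 window held 2 AP-1 matches, TGAATCA and TGAGTCA, and 0.402% of windows held as many. It also held 1 kB-like match, 4 SP1 matches, 1 EGR1 match that overlaps an SP1 match, and 1 TATA match on the other strand, but no NF-kB consensus. The motifs were chosen with the windows in view, so the shares given here only describe the F3 window. A match of letters is a description and not a bound site, and these arrays do not measure binding.

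THBD encodes thrombomodulin, the surface protein that turns thrombin from a clotting enzyme into an activator of the anticoagulant protein C. Its probe set of highest mean read 11.199 log2 after 24 h with particles, 11.003 after 12 h, 11.192 with Pam3CSK4 alone and 9.40 at rest. The 3 activated arrays lay together, at percentiles 95.5 to 95.8 of all probe sets, and the resting array stood apart below. The difference between Pam3CSK4 and rest was 1.79, or 3.46-fold higher. The other THBD probe sets gave 1.96 and 2.25, so all 3 exceeded 2-fold in the same direction. After 12 h with particles the 3 probe sets were below Pam3CSK4 alone by differences of -0.19, -0.36 and -0.58, and after 24 h they differed by 0.01, -0.09 and -0.03. The small 12 h dip was shared by all 3 probe sets, which were read on the same arrays. It stayed under 2-fold and inside the central 95% of genes. Markers that define endothelium, the other classic source of thrombomodulin, were under the filter level on every array for CDH5, TEK, KDR and TIE1, while ESAM, and PECAM1, which monocytes also express, were measured.

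TFPI, the main inhibitor of the tissue factor and factor VII complex, lay low on all arrays. Its 5 probe sets read between 2.83 and 4.24 log2 over the 4 arrays, all under the filter level. No difference is given because no array was above the filter level. The related gene TFPI2 was also under it, at 5.20 log2 after 24 h with particles, 5.40 after 12 h, 4.55 with Pam3CSK4 alone and 3.76 at rest.

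F13A1, the catalytic A subunit of factor XIII, was the 1 measured member at least 2-fold lower with Pam3CSK4 than at rest. Its single probe set read 5.77 log2 after 24 h with particles, 5.76 after 12 h, 5.95 with Pam3CSK4 alone and 7.78 at rest. Only the resting array was above the filter level, and the 3 activated arrays lay within a narrow band under it. The activated values were under the filter level, so the size is given against that level, which the resting value exceeded by 1.59 log2. Differences among the activated arrays are not given for the same reason. F13A1 is a platelet transcript as well, and the part of particle RNA in these values was not tested.

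The F13A1 window is shown beside that of F3 because both genes were lower than at rest. It lies at chr6:6320663-6320912 on the minus strand of GRCh38.p14.
F13A1: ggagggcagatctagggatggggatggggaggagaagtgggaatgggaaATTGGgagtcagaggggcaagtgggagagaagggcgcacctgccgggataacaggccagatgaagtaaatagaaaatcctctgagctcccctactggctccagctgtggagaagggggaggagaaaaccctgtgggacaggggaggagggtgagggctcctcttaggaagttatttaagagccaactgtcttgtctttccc
The only match was 1 CCAAT, on the other strand, so the 2 windows shared none of the searched motifs. In base composition they differed as well, at 55.6% G and C for F13A1 and 78% for F3.

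**Figure D1:**
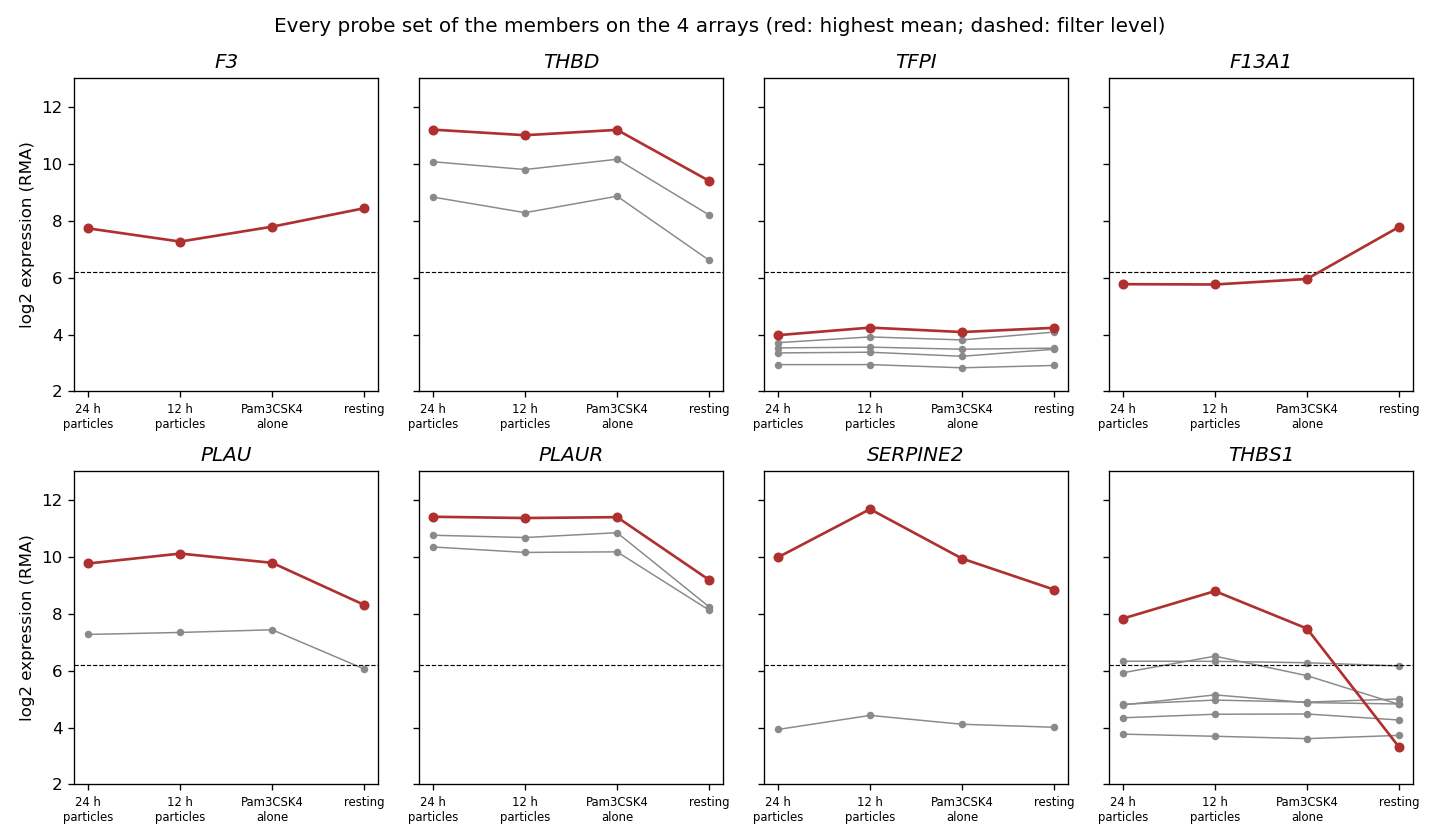
Log2 expression of all 24 probe sets of the 8 genes with a probe set, 1 panel per gene, on the 24 h, 12 h, Pam3CSK4 and resting arrays from left to right. Each point is 1 array, lines join points of 1 probe set, red marks the probe set of highest mean and the dashed line is the filter level of 6.19. THBD, PLAU and PLAUR stand higher on the 3 activated arrays than at rest, F13A1 stands lower, and the red probe sets of SERPINE2 and THBS1 are highest at 12 h, while 4 of the 7 THBS1 probe sets are highest on another array.

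PLAU and PLAUR, which encode urokinase and the receptor that holds it on the cell, were both higher with Pam3CSK4. PLAU read 9.76 log2 after 24 h with particles, 10.11 after 12 h, 9.79 with Pam3CSK4 alone and 8.31 at rest. The 12 h array was the highest and the resting array lay more than 1 log2 below the others. With Pam3CSK4 it differed from rest by 1.48, or 2.79-fold higher, and 1.38 on the second PLAU probe set. The 12 h minus Pam3CSK4 difference was 0.33 on the first probe set and -0.09 on the second, so its direction was not shared.

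PLAUR read 11.41 log2 after 24 h with particles, 11.36 after 12 h, 11.39 with Pam3CSK4 alone and 9.19 at rest. The activated arrays were nearly level, and the resting array was far below. The step from rest to Pam3CSK4 was 2.20, or 4.61-fold higher, and the other probe sets gave 2.60 and 2.05. Against Pam3CSK4 alone, none of the 3 differed by more than 0.17 in size at 12 h or at 24 h with particles, with differences from -0.17 to -0.02 at 12 h and from -0.09 to 0.17 at 24 h.

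The PLAUR window, at chr19:43670170-43670419 on the minus strand of GRCh38.p14, is shown because all 3 probe sets of the gene were higher with Pam3CSK4 and because it shares letters with that of F3.
PLAUR: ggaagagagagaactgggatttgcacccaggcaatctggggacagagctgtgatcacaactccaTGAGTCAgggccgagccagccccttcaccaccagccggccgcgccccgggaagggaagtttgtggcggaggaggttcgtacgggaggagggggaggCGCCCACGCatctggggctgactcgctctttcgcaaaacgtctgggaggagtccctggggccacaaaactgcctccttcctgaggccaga
It held 1 AP-1 match, TGAGTCA, the same letters as the second AP-1 match of F3, and 1 EGR1 match on the other strand. Both windows thus carry the AP-1 letters. With Pam3CSK4 PLAUR was higher and F3 differed by less than 2-fold, and any part of AP-1 in these values was not tested. Of the 2 PLAU windows in RefSeq, 1 held 1 CCAAT and the other 3 SP1 matches, and neither held AP-1 letters.

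SERPINE2, also called protease nexin 1, inhibits thrombin, urokinase and tissue plasminogen activator, and it was the member that stood out after 12 h with particles. It read 9.98 log2 after 24 h with particles, 11.67 after 12 h, 9.94 with Pam3CSK4 alone and 8.85 at rest. The 12 h array was the highest by a wide step, and the 24 h array was back beside the Pam3CSK4 array. With Pam3CSK4 alone it was already 1.09 above rest, or 2.13-fold higher, and with its 2 probe sets averaged this difference was 0.60, under 2-fold. The 12 h minus Pam3CSK4 difference was 1.74, or 3.33-fold higher, rank 11 of 13410 genes, and 1.02 with the probe sets averaged. At 24 h the difference from Pam3CSK4 was 0.05, and 24 h minus 12 h was -1.69, or 3.23-fold lower, rank 5 from the lowest. The second SERPINE2 probe set was under the filter level on all arrays, at 3.93 after 24 h, 4.42 after 12 h, 4.11 with Pam3CSK4 alone and 4.01 at rest.

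Since the time of the Pam3CSK4 array is not given, particles and time cannot be told apart in these comparisons. Platelets also carry protease nexin 1. The listed megakaryocyte and platelet markers had 14 genes with a probe set, and their summed level was 10.08 log2 after 24 h with particles, 10.27 after 12 h, 9.93 with Pam3CSK4 alone and 10.02 at rest. Of these 14, 8 were measured and 0 were 2-fold higher at 12 h than with Pam3CSK4, as only 0.41% of all genes were. Their median difference was 0.38, with 0.54 for TREML1 at the top. Of the 7 measured monocytic markers 1, CD14, was at least 2-fold lower at 12 h than with Pam3CSK4, set beside 0.35% of all genes. The median of the 7 was -0.23. CD14, a co-receptor of bacterial lipopolysaccharide, read 9.13 log2 after 24 h with particles, 7.74 after 12 h, 8.93 with Pam3CSK4 alone and 6.52 at rest. It was thus lower on the 12 h array, where SERPINE2 was highest, than on the 24 h and Pam3CSK4 arrays, and the part of this in the SERPINE2 value was not tested. Of the 3 erythroid and 4 fibroblast markers measured, 0 were 2-fold higher at 12 h than with Pam3CSK4. HBE1, an erythroid marker, read 7.50 log2 after 24 h with particles, 6.30 after 12 h, 5.45 with Pam3CSK4 alone and 5.42 at rest. DCN, a fibroblast marker, read 8.35, 9.03, 8.51 and 7.14 in that order, highest at 12 h. For COL1A1 the probe set of highest mean was 0.11 higher at 12 h and another 1.97. The part of these, or of particle RNA, in the SERPINE2 value was not tested. The GAPDH control gap was 0.92 log2 at 12 h and 0.59 with Pam3CSK4, and the ACTB gap 3.17 and 2.91.

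RefSeq gives 2 start windows for SERPINE2, and the one at chr2:224031479-224031728 on the minus strand of GRCh38.p14 is shown for its repeated motif, marked in capitals.
SERPINE2: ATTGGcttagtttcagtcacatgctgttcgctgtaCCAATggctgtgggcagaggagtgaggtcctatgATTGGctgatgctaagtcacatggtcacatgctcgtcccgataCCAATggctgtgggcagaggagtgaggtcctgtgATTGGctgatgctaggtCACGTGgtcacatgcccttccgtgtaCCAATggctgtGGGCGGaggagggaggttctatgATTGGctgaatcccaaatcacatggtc
It held 7 matches to CCAAT on either strand, and 7 of the 35116 windows (0.0199%) held as many. The motifs were chosen with the windows in view and this window for its repeats, so that share is a description only. The matches alternate between the strands and lie in a stretch that repeats itself, so they are not independent of each other. The window also held 1 E-box and 1 SP1 match. The other SERPINE2 window held 2 SP1 matches and no CCAAT, and the probe sets do not tell which start was used.

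THBS1 is described by its probe set of highest mean, which passed the filter only through the activated arrays. That probe set read 7.83 log2 after 24 h with particles, 8.79 after 12 h, 7.48 with Pam3CSK4 alone and 3.32 at rest. At rest it lay above 4.9% of the probe sets of that array, near its bottom, and the 12 h array was the highest. Since rest lay below the filter level, the size is given against 6.19, which the Pam3CSK4 value exceeded by 1.29 log2, or 2.44-fold. The 12 h minus Pam3CSK4 difference was 1.32, or 2.49-fold higher with both values above the filter, and rank 20. At 24 h the difference from Pam3CSK4 was 0.35, or 1.28-fold, which is above the 0.30 that bounds the central 95% of genes. Platelets store thrombospondin 1, and the part of particle RNA in the THBS1 values was not tested.

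The other THBS1 probe sets did not all follow. A second one read 5.93 log2 after 24 h with particles, 6.51 after 12 h, 5.82 with Pam3CSK4 alone and 4.81 at rest, with only the 12 h array above the filter level, so no difference is given. Another was nearly flat at 6.33, 6.33, 6.28 and 6.16 in the same order of arrays. The remaining 4 were under the filter level on every array. The THBS1 result therefore rests on the 1 probe set annotated with the RefSeq transcript, and 3 of the 7 were highest at 12 h. With the 7 probe sets averaged THBS1 was no longer measured.

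The THBS1 window is shown because the gene was the other member that was higher at 12 h. It lies at chr15:39580829-39581078 on the plus strand of GRCh38.p14.
THBS1: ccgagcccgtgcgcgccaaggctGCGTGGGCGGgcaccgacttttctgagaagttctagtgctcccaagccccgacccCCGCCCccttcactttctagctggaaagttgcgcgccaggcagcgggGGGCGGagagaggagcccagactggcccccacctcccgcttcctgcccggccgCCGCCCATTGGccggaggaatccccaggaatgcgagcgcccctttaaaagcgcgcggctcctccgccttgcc
It held 4 SP1 matches, 1 EGR1 match that overlaps an SP1 match, and 1 CCAAT on the other strand. SP1 and CCAAT letters thus occur in the windows of both SERPINE2 and THBS1, and 42.6% and 32% of all windows hold them.

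After 12 h with particles, 2 of the 7 measured members, SERPINE2 and THBS1, exceeded the Pam3CSK4 array by 2-fold or more, set beside 0.41% of all genes. None was at least 2-fold lower, a direction shared by 0.35% of genes. The median over the members was -0.03, and -0.05 over all genes, so the middle member lay at the level of genes in general. The other 5 differed by amounts between -0.52 for F3 and 0.33 for PLAU, with F13A1 under the filter level on both arrays. After 24 h, 0 of the 7 were 2-fold higher or lower, in a comparison where 0.0298% of all genes were higher and 0% lower. Between the co-culture times, 1 member, SERPINE2, was at least 2-fold lower at 24 h than at 12 h, set beside 0.224% of genes, and THBS1 came just short at -0.96. None was 2-fold higher at 24 h, as 0.343% of genes were. Set against rest, 5 members were 2-fold higher and 2 lower at 12 h, where 5.1% and 4.21% of genes were, the second lower one being F3. At 24 h 5 were higher and 1 lower than at rest, where 4.49% and 1.8% of genes were. These comparisons with Pam3CSK4 share its array, so a deviation of that array would enter each of them, and also Pam3CSK4 minus resting with the opposite sign.

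**Figure D2:**
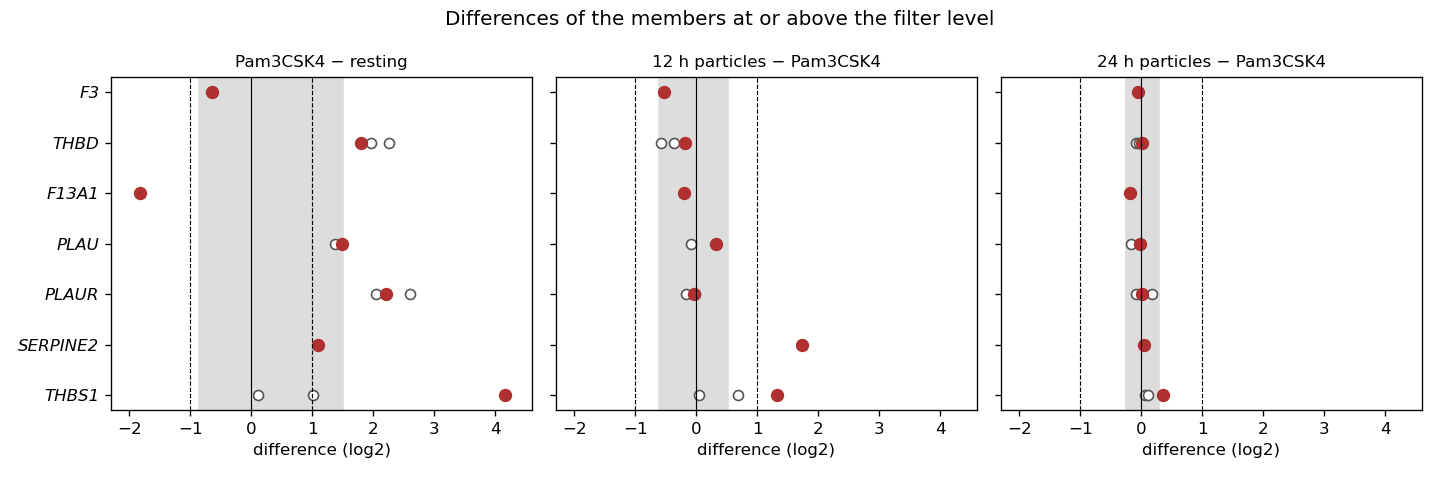
Log2 differences of the 14 member probe sets that reached the filter level, for Pam3CSK4 minus resting, 12 h minus Pam3CSK4 and 24 h minus Pam3CSK4 from left to right. Filled points are the probe sets of highest mean, open points the others, dashed lines mark 2-fold, some points (THBS1 and F13A1 on the left among them) have a value under the filter level on 1 side or both, and the grey band holds the central 95% of all measured genes. SERPINE2 at 1.74 and THBS1 at 1.32 lie beyond 2-fold at 12 h, and no member does at 24 h.

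Other genes of clotting and fibrinolysis were taken from 10 lists of 64 genes, of which 61 had a probe set and 40 were measured. With Pam3CSK4 11 of the 40 (27.5%) were at least 2-fold higher and 0 lower than at rest. Over all genes the shares were 4.14% and 1.71%, and the median of the 40 was 0.045. The lists were chosen with earlier results of these data known, so the counts describe them without supporting more. SERPINB9, among the 11, passed the filter only through the activated arrays. The share was uneven between lists. Plasminogen receptors and clearance genes had 5 of 8 past 2-fold upward, with a median of 1.11, and intracellular and other serpins had 3 of 5 and a median of 1.15. Plasma coagulation factors, which the liver makes for the most part, had 0 of 8 with a median of -0.01, and anticoagulants 0 of 3. These lists differ in level. Over the 15 plasma factors with a probe set the median was 6.07 log2 with Pam3CSK4 and 6.25 at rest, near the filter level. For the plasminogen receptors and clearance genes it was 11.52 and 10.24, so the shares do not compare responses at a like level. In the 3 comparisons involving particles 0 of the 40 reached 2-fold in either direction, and few of all genes did. The shares of all genes higher and lower were 0.41% and 0.35% for 12 h minus Pam3CSK4. They were 0.0298% and 0% for 24 h minus Pam3CSK4, and 0.343% and 0.224% for 24 h minus 12 h.

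ANXA2, the annexin that binds plasminogen and its activator at the cell surface, read 13.64 log2 after 24 h with particles, 13.63 after 12 h, 13.76 with Pam3CSK4 alone and 11.14 at rest. Its partner S100A10 read 11.48, 11.26, 11.39 and 10.28 in the same order of arrays. Both were thus high at rest already and higher in each activated culture, with Pam3CSK4 minus resting at 2.63 for ANXA2 and 1.11 for S100A10. PLGRKT, a plasminogen receptor of the membrane, differed by 1.45. ITGAM and ITGB2, the chains of the integrin Mac-1, which binds fibrinogen and works with the urokinase receptor, differed by 2.20 and 1.11. The second ITGAM probe set gave -0.19 and the ITGB2 probe sets ranged from 0.44 to 1.71, so the size for these chains depends on the probe set.

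Among the serpins, SERPINB9, an inhibitor of granzyme B, read 7.81 log2 after 24 h with particles, 8.09 after 12 h, 7.47 with Pam3CSK4 alone and 4.03 at rest, where it was under the filter level. Neuroserpin (SERPINI1), an inhibitor of tissue plasminogen activator, differed by 1.86 between Pam3CSK4 and resting cells, and SERPINA1, the inhibitor of neutrophil elastase, by 1.15. The order of the arrays for SERPINB9 was that of THBS1, highest at 12 h and lowest at rest. CD36, a receptor of thrombospondin 1, differed by 2.56 with Pam3CSK4, and by 1.62 to 2.64 over its measured probe sets. PLSCR1, named as a phospholipid scramblase, differed by 1.43.

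Genes listed for their role whatever their value showed smaller differences. PROCR, the receptor of protein C that works with thrombomodulin, read 8.54 log2 after 24 h with particles, 8.42 after 12 h, 8.34 with Pam3CSK4 alone and 8.52 at rest. F2R, the thrombin receptor PAR1, read 7.29, 7.57, 7.31 and 7.25 in that order. Both stayed within 0.26 in size in each of the comparisons with Pam3CSK4. PLAT, the gene of tissue plasminogen activator, was under the filter level on every array. F2RL1 had no probe set under its name alone in the annotation and is not analysed here.

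**Figure D3:**
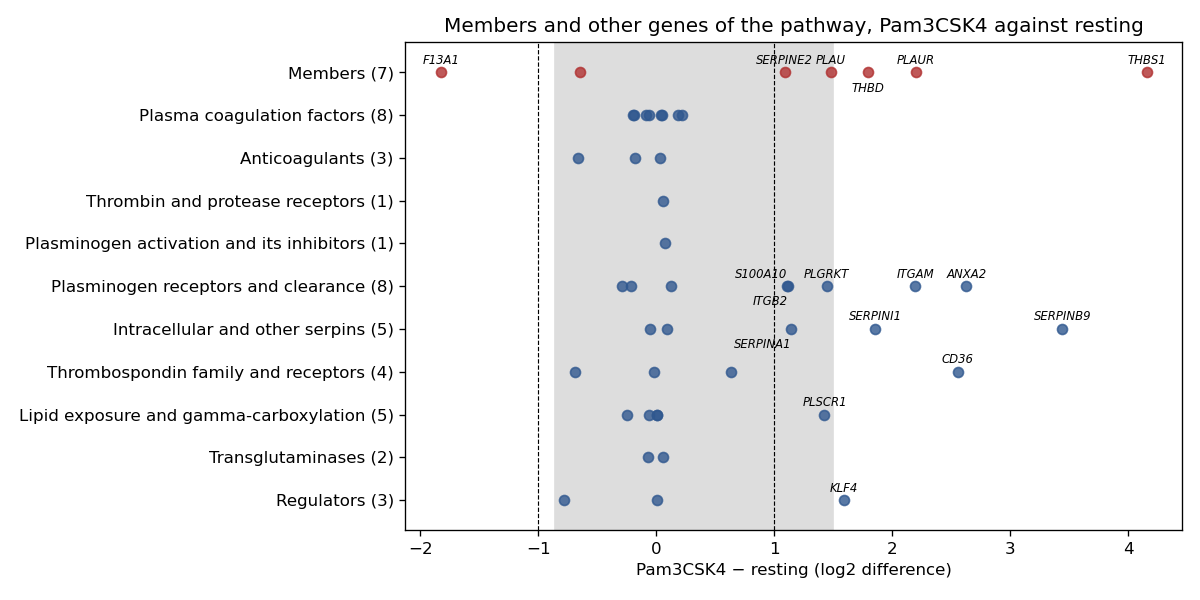
Log2 difference between the Pam3CSK4 and resting arrays for the measured members (red) and the measured genes of 10 other lists (blue), with the number measured in brackets. Each point is 1 gene, genes past 2-fold (dashed lines) are named, THBS1, F13A1 and SERPINB9 have 1 value under the filter level so their distance from 0 is inexact, and the grey band holds the central 95% of all measured genes. Plasminogen receptors and serpins reach past 2-fold with 5 of 8 and 3 of 5 genes. Plasma coagulation factors, whose median level lay near the filter level, stay near 0.

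The members differed among themselves in the shape of their profile, taken as log2 values minus the gene's mean over the 4 arrays. The smallest distances between 2 members were 0.42 log2 for THBD and PLAUR and 0.45 for THBD and PLAU, whose profiles separate rest from activation. F3 and F13A1 lay 1.02 apart. Among all measured genes the nearest to PLAU were JUN at 0.04, CD58 at 0.05 and ARHGAP24 at 0.07. The PLAU profile used was that of its first probe set, and the second did not share the 12 h rise. JUN encodes a subunit of AP-1 and CD58 an adhesion molecule that T cells bind. The nearest to PLAUR were LACTB, RASSF6 and ALDH1A1 and the nearest to THBD were GLIPR1, PRR18 and MYCL, each within 0.12 log2. LINC01943, POU4F2 and MEST were nearest to F13A1, within 0.08 log2. The activated values of F13A1 and LINC01943 and the resting values of RASSF6 and ALDH1A1 were under the filter level. Distances that involve these genes, that of F3 and F13A1 included, are therefore inexact. Over 4 arrays such distances only describe the order and spacing of the arrays, and many genes share the step between rest and activation.

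The nearest profiles to SERPINE2 and THBS1 lay farther off. COL8A1, a collagen chain, was nearest to SERPINE2 at 0.32 log2, and read 6.12 after 24 h with particles, 7.53 after 12 h, 5.89 with Pam3CSK4 alone and 5.12 at rest. ECRG4 and LINC00597 followed at 0.46 and 0.52. MX1 was nearest to THBS1 at 0.36 log2, then EPSTI1 at 0.38 and SLAMF7 at 0.40. MX1, an antiviral GTPase induced by interferon, read 11.46 after 24 h with particles, 12.31 after 12 h, 11.35 with Pam3CSK4 alone and 7.28 at rest. These 6 were chosen for their likeness, so a shared peak is no finding, and COL8A1 and LINC00597 were above the filter level at 12 h alone. The resting values of THBS1, ECRG4, EPSTI1 and SLAMF7 were under that level as well.

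**Figure D4:**
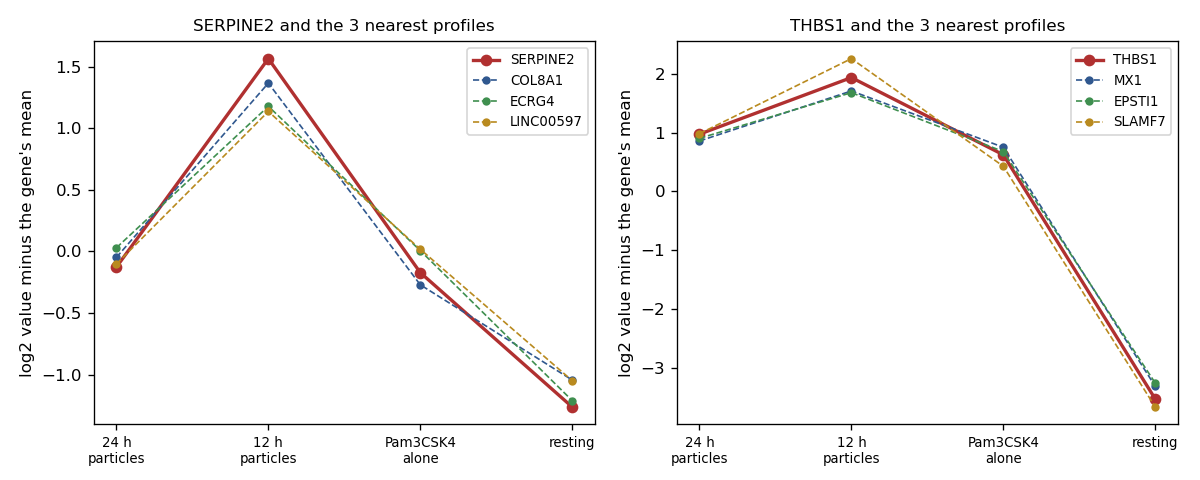
Log2 values minus each gene's mean over the 4 arrays for SERPINE2 (left) and THBS1 (right) in red with the 3 genes of nearest profile in dashed lines, on the 24 h, 12 h, Pam3CSK4 and resting arrays from left to right. Each point is 1 array. The neighbours were chosen for likeness, so the shared peak at 12 h is a description, with COL8A1 nearest to SERPINE2 and MX1 nearest to THBS1.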

How the data were processed

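RNA of THP-1 cells was measured on 4 Affymetrix arrays, 1 per condition. The authors deposited log2 values made with RMA in affy 1.28.1, per the submitters' processing notes. RMA subtracts background, gives all arrays 1 distribution and reduces each probe set to 1 value, so a global change in RNA content cannot be seen and low differences are compressed. No genome build is named for the array, and promoter coordinates come from RefSeq on GRCh38.p14.

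Genes were named from the platform annotation. Of 41091 probe sets naming 1 gene, 41043 matched RefSeq, which updated 0 symbols. The probe set of highest mean stood for each gene, which gave 19775 genes, 13410 of them at or above 6.19 log2 on at least 1 array. Differences were counted at 2-fold, with no test. The members and lists were chosen with earlier results of these data known, and the motifs with the promoter windows in view. All members were named, as were listed genes at least 2-fold different, 6 fixed genes and, per member at least 2-fold different, the 3 nearest profiles by Euclidean distance. Counting was tested on simulated data. Software was Python 3.11.15, numpy 2.4.6, pandas 2.3.3, matplotlib 3.10.9, R 4.3.3 and limma 3.58.1.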

Additional observations from a re-analysis of the deposited data

How the results depend on the processing

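No replicate could be left out and no paired analysis was possible because each condition has 1 array. Nothing changed direction among member differences of at least 2-fold in the alternatives run. Where a value below moved, the cause was not tested beyond which members remained measured. Those were 6 with the 75th percentile filter, which drops F13A1, 6 with probe sets averaged, 5 without the _x_at and _s_at probe sets, which drops THBS1 and PLAU, and 8 with no filter, which adds TFPI.

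For Pam3CSK4 minus resting, members at least 2-fold higher numbered 3 with probe sets averaged, 3 without those suffixes and 3 at a 3-fold threshold, against 5. Lower members numbered 2 at 1.5-fold, where F3 joins, and 0 with the 75th percentile filter, against 1. The median of 1.48 was 1.64 with that filter, 1.28 with no filter, 1.01 averaged, 1.09 without the suffixes and 1.09 when each gene took its probe set of smallest difference, a setting added after the data were seen.

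For 12 h minus Pam3CSK4, higher members numbered 1 averaged, 1 without the suffixes, 1 with the smallest difference and 1 at 3-fold, against 2. SERPINE2 was the remaining one, at 1.02 averaged and 1.74 without the suffixes, and THBS1 differed by 0.05 on its flattest measured probe set. The median of -0.03 was 0.15 with the 75th percentile filter and -0.19 without the suffixes. For 24 h minus 12 h, 2 members were lower at 1.5-fold, against 1, and the median of 0.01 was -0.15 with the 75th percentile filter, -0.13 with no filter and 0.19 without the suffixes. With cyclic loess (3 iterations) the counts of members were those of the deposited values in all 4 comparisons. Signal over background was judged by level alone.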

Other observations

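Of the regulators listed with the pathway, KLF4, a transcription factor of monocytes known in endothelium to raise THBD, read 10.51 log2 after 24 h with particles, 9.67 after 12 h, 10.52 with Pam3CSK4 alone and 8.93 at rest. Its order over the arrays was that of THBD except that the 24 h array did not exceed the Pam3CSK4 array, and its 12 h minus Pam3CSK4 difference was -0.84, with -0.35 on its other probe set. EGR1, an immediate early transcription factor, read 7.82, 7.62, 7.48 and 8.26 in that order of arrays and was highest at rest, as F3 was. KLF2 stayed between 6.61 and 6.80 on the 4 arrays. Whether any of these factors acts on the members was not measured.

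F13A1 passed the filter only through the resting array, so it had to differ. The listed transglutaminase genes TGM1, TGM2 and TGM3 are described beside it, and no contrast is drawn. TGM1 read 6.87 log2 after 24 h with particles, 6.74 after 12 h, 6.92 with Pam3CSK4 alone and 6.87 at rest. TGM2 differed by -0.07 between Pam3CSK4 and rest. Only 1 of its 4 probe sets was measured, between 6.35 and 6.44 log2, close to the filter level. TGM3 was under the filter level on every array. THBS4 and THBS3 are relatives of THBS1. THBS4 read 8.04, 7.68, 8.23 and 8.92 in that order of arrays, lowest at 12 h. The THBS1 probe set of highest mean was highest there, but it passed the filter only through the activated arrays. Another measured THBS1 probe set was nearly flat, so no contrast with the relatives is drawn. THBS3 differed by -0.02 between Pam3CSK4 and rest.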
